A study of Mus musculus with 6 samples.

Results

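Cyclins, cyclin-dependent kinases (Cdks) and the regulators of mitosis were described in neocortical cells of mouse embryos in which the transcription factor Insm1 had been expressed from a plasmid. Members were taken by gene symbol: the A, B, D, E and G cyclins, the numbered Cdks, the E2F factors and pocket proteins, the Cdc25 phosphatases, the Aurora and Polo kinases, the CENP and Ndc80 proteins of the kinetochore, the spindle checkpoint, and a set of spindle and chromosome proteins that includes Mki67 and Top2a. They numbered 83 of the 22001 genes counted, and 80 of the 83 had enough counts to be tested. The 3 that did not were Ccnb3, at 0 counts in every library, Aurkc, with at most 3 counts in any library, and Cdk18, with at most 11.

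The labels distinguish the 2 groups by the plasmid. Embryos were electroporated in utero at E13.5, a method that drives injected DNA by current pulses into the cells lining the ventricle, and the neocortex was dissected at E14.5. The control plasmid encoded the red fluorescent protein mCherry and the other encoded mCherry with Insm1, a zinc-finger factor of neural and neuroendocrine progenitors. mCherry-positive cells gave 3 RNA-seq libraries per group. The labels name neither the promoter of the plasmids nor the embryos behind a library. Since separate litters are not stated, each p-value covers library-to-library spread alone, some of which may be technical.

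The cell division cycle is driven by Cdks, kinases that act only when bound to a cyclin. In G1, D cyclins with Cdk4 and Cdk6 and then E cyclins with Cdk2 phosphorylate the pocket proteins of the Rb family, which releases E2F factors to switch on the genes of DNA replication; later, A and B cyclins with Cdk1, and the Aurora and Polo kinases, carry the cell through mitosis, and the anaphase-promoting complex (APC/C) ends it by marking mitotic proteins for destruction. In the embryonic neocortex the cycling cells are apical progenitors, which divide at the ventricle, and basal progenitors, which divide away from it, while the neurons they produce have left the cycle.

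Promoters of mitotic genes are known for 2 elements, the CCAAT box bound by NF-Y and the cell cycle genes homology region (CHR) bound by the MuvB complex, whereas promoters of G1/S genes often carry E2F sites. The stretches of 250 bases before the RefSeq start sites (GRCm38.p6) of 4 mitotic members are shown first because these elements stand out in them, with Cdk1 on the minus strand of chr10:69352913-69353162, Ccnb2 on the minus strand of chr9:70421555-70421804, Top2a on the minus strand of chr11:99024190-99024439 and Ube2c on the plus strand of chr2:164769679-164769928. Capitals mark CCAAT on either strand (ATTGG on the reverse), the CHR as TTTGAA or TTCGAA on either strand (TTCAAA on the reverse of the first), and the E2F-like octamers TTTCCCGC, TTTGGCGC, TTTGCCGC or TTTCGCGC.
Cdk1: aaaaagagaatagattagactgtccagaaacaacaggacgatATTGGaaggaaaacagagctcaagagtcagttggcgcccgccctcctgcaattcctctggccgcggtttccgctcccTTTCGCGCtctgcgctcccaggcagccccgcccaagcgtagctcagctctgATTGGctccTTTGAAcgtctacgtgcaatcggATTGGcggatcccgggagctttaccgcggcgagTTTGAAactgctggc
Ccnb2: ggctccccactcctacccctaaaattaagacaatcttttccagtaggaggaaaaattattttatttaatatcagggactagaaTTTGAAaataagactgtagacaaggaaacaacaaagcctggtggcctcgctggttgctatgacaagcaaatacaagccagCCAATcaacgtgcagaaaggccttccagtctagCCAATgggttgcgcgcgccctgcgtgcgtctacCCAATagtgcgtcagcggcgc
Top2a: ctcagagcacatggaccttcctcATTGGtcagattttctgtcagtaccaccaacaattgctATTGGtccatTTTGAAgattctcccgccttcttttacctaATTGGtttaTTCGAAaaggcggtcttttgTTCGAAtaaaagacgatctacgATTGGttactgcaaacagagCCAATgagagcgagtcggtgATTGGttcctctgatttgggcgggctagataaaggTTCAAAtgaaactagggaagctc
Ube2c: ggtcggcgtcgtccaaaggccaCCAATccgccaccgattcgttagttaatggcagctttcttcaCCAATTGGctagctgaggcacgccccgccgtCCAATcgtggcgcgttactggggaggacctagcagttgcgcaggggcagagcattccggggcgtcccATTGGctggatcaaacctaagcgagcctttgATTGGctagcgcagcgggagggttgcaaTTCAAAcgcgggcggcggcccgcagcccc
The Cdk1 stretch held 3 CCAAT boxes, 2 CHR matches and 1 E2F-like match, and those of Top2a and Ube2c held 6 CCAAT matches each. In Ube2c the stretch CCAATTGG is counted as a match on each strand. In Ccnb2 the marked CHR match begins 167 bases before the start. A further CHR match, at position 5 past the start, lies outside the stretch shown. These 4 mitotic genes also shared an order of the libraries that is described further on. The promoter of Plk2, on the plus strand of chr13:110394794-110395043, is shown for contrast, since Plk2 had the largest difference between the groups and does not share that pattern. It held none of the 3 elements, and its capitals mark a cAMP response element, TGACGTCA, which was searched for after the sequence had been seen.
Plk2: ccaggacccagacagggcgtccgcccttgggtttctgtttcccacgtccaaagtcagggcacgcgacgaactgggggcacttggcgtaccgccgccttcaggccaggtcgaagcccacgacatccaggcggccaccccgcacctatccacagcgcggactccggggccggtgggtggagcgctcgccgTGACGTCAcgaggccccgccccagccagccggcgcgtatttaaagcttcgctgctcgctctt

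Library totals lay between 30017645 and 31645135 counts. Insm1 itself was at 222, 331 and 371 CPM (counts scaled to a common library size) in control libraries 1 to 3 and at 1569.6, 2173 and 1436 CPM in Insm1 libraries 1 to 3, which is 5.61-fold higher (log2 fold change 2.49, adjusted p = 0.0122 by edgeR's quasi-likelihood test with Benjamini-Hochberg adjustment). Neocortical markers summed to between 2922 and 3072 CPM in the controls and between 3231 and 3521 CPM in the Insm1 libraries, with 2 of 7, Emx1 and Lhx2, called higher, and interneuron markers summed to at most 19.2 CPM. Of the cells that may cycle, apical progenitor markers summed to between 3369 and 3895 CPM in the controls and between 2416 and 3015 CPM in the Insm1 libraries, with 6 of 10 called lower, and basal progenitor markers to between 2262 and 2491 CPM and between 2476 and 2702 CPM, with 3 of 10 called higher. Markers of projection neurons summed to between 7053 and 7444 CPM and between 8022 and 8757 CPM, with 3 of 10 called higher. The median log2 fold change was -0.63 over the apical markers, 0.026 over the basal markers and 0.16 over the projection neuron markers. Among the basal markers, Sstr2 was called higher, with a mean of 365.9 CPM in the controls and 550.5 CPM in the Insm1 libraries. Eomes and Neurog2 were not called, at log2 fold changes of -0.046 and -0.12. Markers of red blood cells were uneven, at 754, 5493 and 325 CPM in controls 1 to 3 and 5052, 5148 and 3797 CPM in Insm1 libraries 1 to 3. Those of microglia were at 1.33, 74.5 and 8.71 CPM in the controls and 11.1, 38.5 and 17.2 CPM in the Insm1 libraries, and no endothelial marker had enough counts to be tested.

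Transcript levels of the cell cycle machinery lay close together in both groups. No tested member was called at an adjusted p below 0.05, whereas 3.35% of all 13560 tested genes were (454 genes), 1.23% higher and 2.12% lower. At an unadjusted p below 0.05 stood 7 members, all with lower values in the Insm1 libraries and none with higher, beside 17.2% of all genes, of which 9.69% were lower and 7.56% higher. DESeq2 called 1 member, Plk2, beside 7.60% of the genes it tested. In 56 of the 80 members (70.0%) the log2 fold change was below 0, beside 51.9% of all genes, and the median over members was -0.089 beside -0.0086 over all genes. The estimates were as precise as those of other genes, with a median standard error of 0.135 beside 0.136. For 65 of the 80 members (81.2%) the whole 95% interval lay within a 1.5-fold difference in either direction, beside 59.3% of all genes. Since these are sorted mixtures of cells, a smaller number of cycling cells and less RNA per cycling cell cannot be told apart. The excess of negative values rested in part on control 2: without that library the median over members was 0.016 and 44 members were positive.

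**Figure D1:**
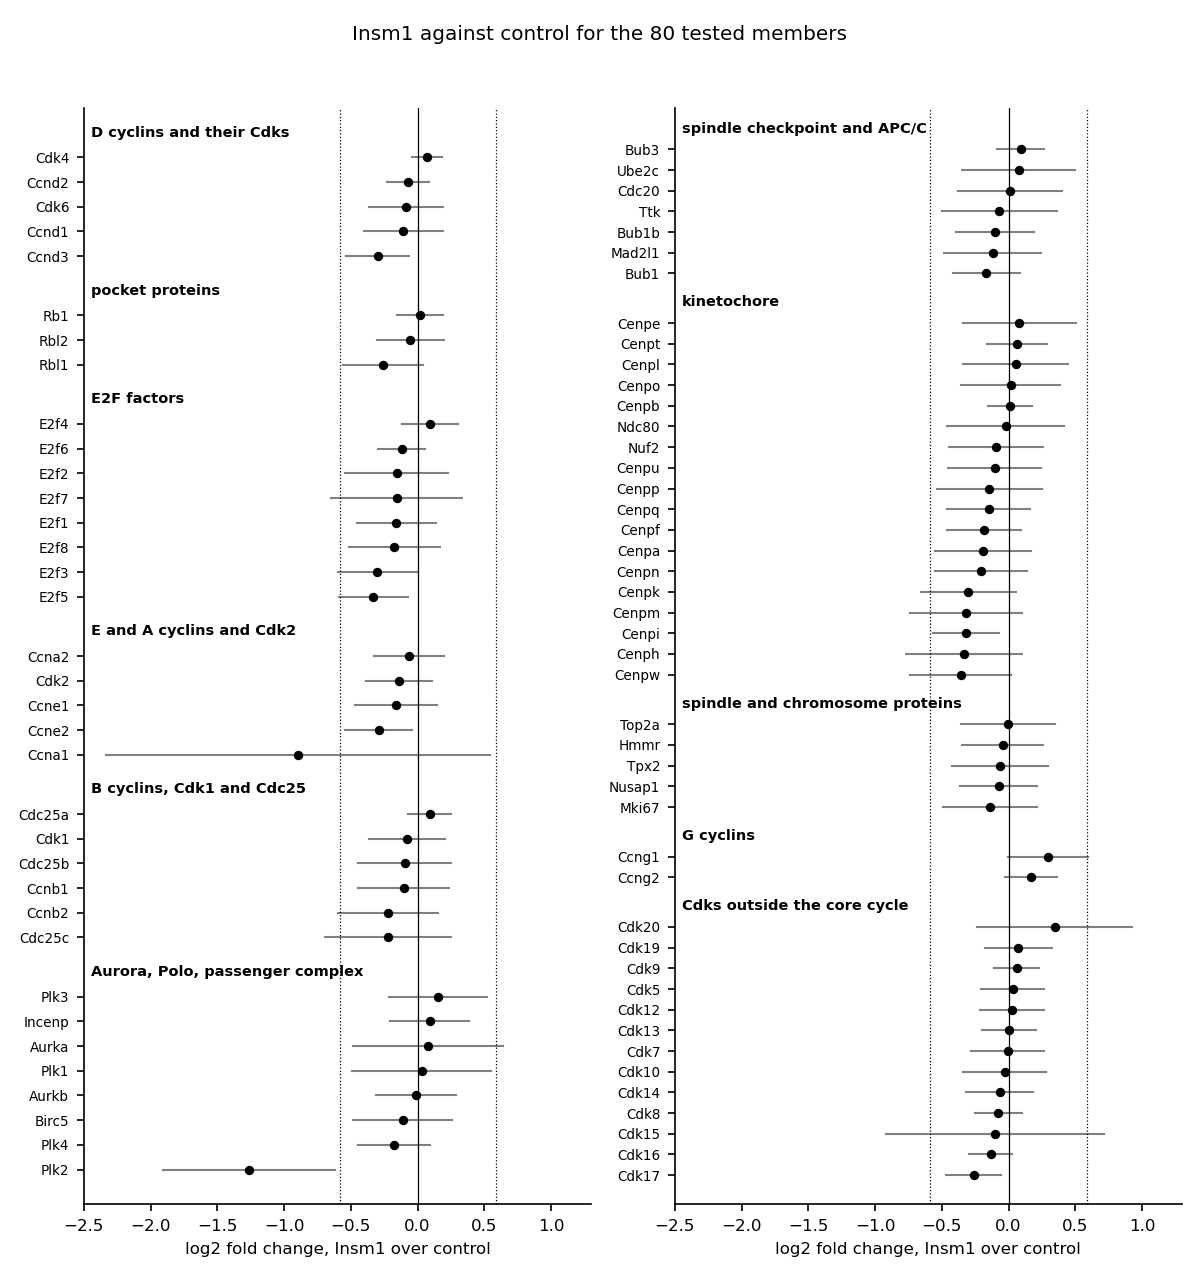
Log2 fold changes of the 80 tested members, Insm1 over control, grouped by role. Points are edgeR estimates, horizontal lines their 95% intervals, and dotted vertical lines a 1.5-fold difference in either direction. Plk2 is lowest at -1.26, followed by Ccna1 at -0.90 with the widest interval, and 65 of the 80 intervals lie between the dotted lines.

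Among the D cyclins and their Cdks, Cdk4 and Ccnd2 had the highest transcript levels. On a scale of CPM per kilobase of merged exons, which allows levels of different genes to be compared, Cdk4 had the highest level of all members, 255 ± 9.04 (SD, n = 3) in the controls, followed by Ccnd2 at 98.9 ± 3.20 (SD, n = 3). Ccnd2 made up 90.6% ± 0.730 (SD, n = 3) of the level of the 3 D cyclins in the controls, Ccnd1 5.95% ± 0.702 (SD, n = 3) and Ccnd3 3.49% ± 0.172 (SD, n = 3). The order of Ccnd1 and Ccnd3 depended on the length used. Per kilobase of the longest transcript the control shares were 89.7% for Ccnd2, 4.99% for Ccnd1 and 5.29% for Ccnd3. Cdk4 made up 98.0% ± 0.321 (SD, n = 3) of the level of Cdk4 and Cdk6.

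Cdk4 (chr10:127063534-127067920, plus strand) was measured at 830.4, 857 and 798 CPM in control libraries 1 to 3 and at 868, 866 and 875 CPM in Insm1 libraries 1 to 3. The 3 Insm1 libraries were nearly equal and lay just above the highest control, the single member with libraries that did not overlap in the upward direction, beside 10.4% of all genes. The difference was small, with a log2 fold change of 0.070 ± 0.050 (SE) and a 95% interval of -0.042 to 0.18 (adjusted p = 0.553). Exons of Cdk4 overlap those of Tspan31, and reads of the 2 genes cannot be told apart by strand.

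Ccnd2 (chr6:127125162-127152193, minus strand), the D cyclin of cortical progenitors, was at 922, 964 and 906 CPM in the controls and 984, 842 and 829.6 CPM in the Insm1 libraries. The Insm1 libraries spread to both sides of the controls, and the log2 fold change of -0.073 had an interval of -0.23 to 0.084 (adjusted p = 0.687). Ccnd1 (chr7:144929931-144939925, minus strand), which shares exon sequence with Oraov1, was at 26.9, 36.0 and 29.1 CPM in the controls and 29.1, 25.9 and 30.4 CPM in the Insm1 libraries. Its groups overlapped, with an interval of -0.40 to 0.19 around -0.11 (adjusted p = 0.771).

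Ccnd3 was the D cyclin with the clearest separation. Its counts (chr17:47505051-47599691, plus strand, with exons shared with Bysl) were 34.0, 35.8 and 30.6 CPM in the controls and 27.5, 28.1 and 26.1 CPM in the Insm1 libraries. All Insm1 libraries lay below all controls, 1.23-fold lower on average (log2 fold change -0.30, 95% interval -0.53 to -0.062), but the adjusted p was 0.175. Cdk6 (chr5:3341485-3531008, plus strand), the partner that can stand in for Cdk4, was at 63.6, 88.9 and 65.3 CPM in the controls and 67.8, 69.0 and 68.2 CPM in the Insm1 libraries. Here control 2 stood above 5 closely grouped libraries, and the log2 fold change was -0.087 (adjusted p = 0.807).

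**Figure D2:**
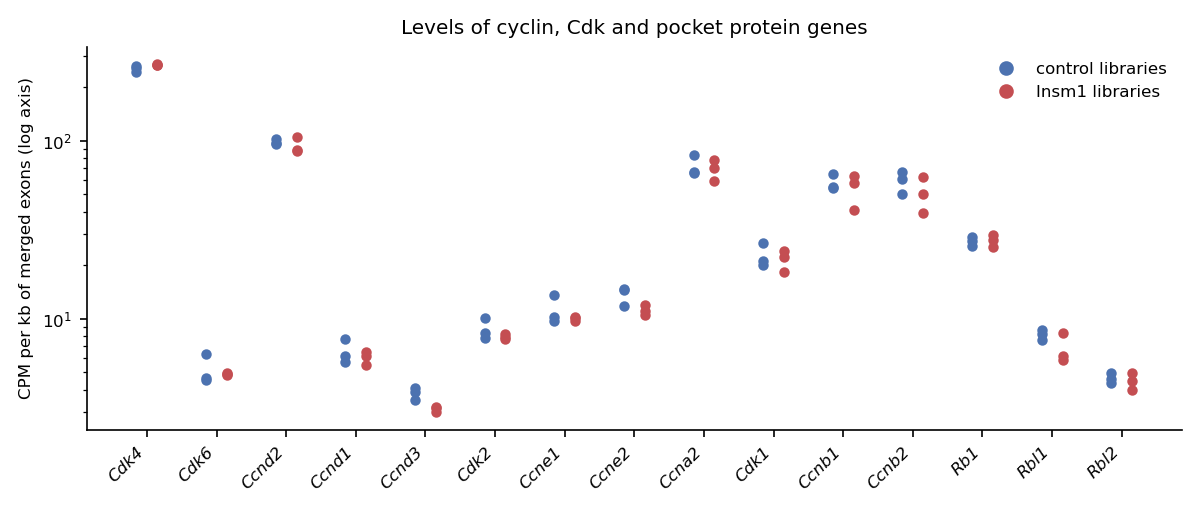
Levels of 15 core members on a log axis, in CPM per kilobase of merged exons. Each point is 1 library, blue for control and red for Insm1. Cdk4 lies highest, with a control mean of 255, and Ccnd2 next at 98.9, while Cdk6, Ccnd1 and Ccnd3 have control means below 7, and the 2 groups lie close together for each gene.

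Downstream of the D cyclins, Rb1 led the pocket proteins and E2f1 and E2f4 led the E2F factors. Rb1 made up 68.0% ± 1.49 (SD, n = 3) of the level of the 3 pocket proteins in the controls. It was at 166, 173 and 154 CPM in the controls and 152, 178 and 167 CPM in the Insm1 libraries, so the groups overlapped widely (log2 fold change 0.017, 95% interval -0.15 to 0.19, adjusted p = 0.950). Its exons overlap those of Lpar6 and Rcbtb2.

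Rbl1 encodes p107, a pocket protein of cycling cells and itself an E2F target. It was at 45.7, 49.2 and 51.5 CPM in the controls and 50.05, 35.2 and 37.1 CPM in the Insm1 libraries. Insm1 libraries 2 and 3 lay below all controls and library 1 lay among them, with a log2 fold change of -0.26 and an interval of -0.56 to 0.042 (adjusted p = 0.376). Rbl2, which encodes p130, the pocket protein of resting cells, had a log2 fold change of -0.054 (adjusted p = 0.875).

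Of the 8 E2F factors 7 had values below 0, with a median of -0.16, and none was called. E2f1, an activator of replication genes, made up 25.4% ± 0.975 (SD, n = 3) of the E2F level in the controls. It was at 81.0, 92.9 and 73.6 CPM in the controls and 82.9, 59.3 and 79.3 CPM in the Insm1 libraries, where library 2 was lowest of all 6 (log2 fold change -0.16, adjusted p = 0.622). E2f4, which acts with pocket proteins to repress, was at 53.0, 60.2 and 51.0 CPM and at 62.3, 56.2 and 56.3 CPM, the single E2F with a positive value (log2 fold change 0.091, adjusted p = 0.717).

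E2f5, like E2f4 a partner of the pocket proteins, was at 30.7, 29.5 and 25.5 CPM in the controls and 21.9, 23.5 and 22.8 CPM in the Insm1 libraries. The groups did not overlap, with values 1.26-fold lower (log2 fold change -0.33, 95% interval -0.59 to -0.072), but the adjusted p was 0.169. E2f5 lies at chr3:14578641-14606309 on the plus strand and shares exon sequence with 1810022K09Rik. E2f6, a repressor that works without pocket proteins, also had groups that did not overlap, at a log2 fold change of -0.12 (adjusted p = 0.514), and E2f3, an activator like E2f1, had an interval of -0.60 to -0.0069 (adjusted p = 0.277). Across all members 7 had libraries that did not overlap in the downward direction, namely Ccnd3, Cdk8, Cenpi, Cenpw, E2f5, E2f6 and Plk2, beside 11.8% of all genes.

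The cyclins of S phase showed one dominant A cyclin and a balanced pair of E cyclins. Ccna2, which serves both Cdk2 in S phase and Cdk1 in G2, made up 99.4% ± 0.295 (SD, n = 3) of the A cyclin level in the controls, and Ccna1, best known from the germ line, stayed below 1 CPM in every library. Ccna2 was at 271, 342 and 272 CPM in the controls and 318, 242 and 288 CPM in the Insm1 libraries. Control 2 was the highest library and Insm1 library 2 the lowest, and the log2 fold change of -0.063 had an interval of -0.32 to 0.20 (adjusted p = 0.858). Its exons overlap those of Exosc9.

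Cdk2, their kinase, was at 52.0, 63.2 and 48.2 CPM in the controls and 51.1, 47.7 and 49.4 CPM in the Insm1 libraries (log2 fold change -0.14, adjusted p = 0.595). Again control 2 stood above the rest. Ccne1 and Ccne2, which take Cdk2 into S phase, held 44.8% and 55.2% of the E cyclin level in the controls. Ccne2 was at 41.1, 51.7 and 50.9 CPM in the controls and 38.9, 42.0 and 36.5 CPM in the Insm1 libraries. Control 1 lay within the Insm1 range, and the log2 fold change of -0.29 had an interval of -0.54 to -0.039 (adjusted p = 0.217). Exons of Cdk2 overlap those of Pmel, and exons of Ccne2 those of Ints8.

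The mitotic engine, B cyclins with Cdk1, had no called member and 5 of 6 values below 0. Ccnb1, the cyclin that enters the nucleus with Cdk1 at the onset of mitosis, was at 230.3, 274 and 232 CPM in the controls and 268, 173 and 244 CPM in the Insm1 libraries. The 3 Insm1 libraries spanned a wider range than the controls, and the log2 fold change of -0.10 had an interval of -0.44 to 0.24 (adjusted p = 0.813). Cdk1 was at 99.4, 132 and 104 CPM in the controls and 119, 89.9 and 109 CPM in the Insm1 libraries. Its 6 libraries stood in the same order as those of Ccnb1 (log2 fold change -0.079, 95% interval -0.36 to 0.21, adjusted p = 0.833).

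Ccnb1 and Ccnb2 had nearly equal levels per kilobase of merged exons, 49.7% and 50.3% of the B cyclin level in the controls, but Ccnb1 held 62.6% when levels were taken per kilobase of the longest transcript. Cdc25a, the phosphatase that activates Cdk2 and Cdk1 by removing inhibitory phosphates, was at 105, 104 and 98.3 CPM in the controls and 116, 107 and 104 CPM in the Insm1 libraries. Its groups overlapped by 1 library, at a log2 fold change of 0.091 with an interval of -0.068 to 0.25 (adjusted p = 0.595). Cdc25b and Cdc25c, which act at the entry into mitosis, had log2 fold changes of -0.10 and -0.22 (adjusted p = 0.833 and 0.677).

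Plk2 was the member with the largest difference. Plk2 (chr13:110395046-110400844, plus strand) encodes a Polo-like kinase that, unlike Plk1, is an immediate-early and p53-responsive gene and works at the centrosome in G1 and at synapses in neurons. It was at 83.3, 35.6 and 61.1 CPM in the controls and 25.9, 21.8 and 27.3 CPM in the Insm1 libraries. All 3 Insm1 libraries lay below the lowest control, and the controls themselves spread over more than the gap between the groups. The level was 2.40-fold lower, with a log2 fold change of -1.26 ± 0.28 (SE) and a 95% interval of -1.91 to -0.62, and the adjusted p of 0.0557 missed the threshold.

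The call of Plk2 turned on the method. DESeq2 gave an adjusted p of 0.00642, a fit that is not robust 0.0321 and a fit with the replicate number as a block 0.0241, while the other tools, scalings and filters gave between 0.0584 and 0.114. With control 2, the lowest control for Plk2, left out, the log2 fold change was -1.53 and the adjusted p 0.0011; with control 1 left out it was -0.94 with an adjusted p of 0.0708. Without control 3 the adjusted p was 0.177, and without Insm1 library 1, 2 or 3 it was 0.131, 0.174 and 0.183. Red blood cell and microglial markers were highest in control 2 among the controls; their part in its Plk2 level was not tested.

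The other Polo kinases had smaller differences, and their contrast with Plk2 was not tested. Plk1, the main mitotic Polo kinase, was at 80.9, 112 and 87.2 CPM in the controls and 127, 68.3 and 90.5 CPM in the Insm1 libraries. Insm1 libraries 1 and 2 were the highest and the lowest of all 6, so the log2 fold change of 0.031 carried a wide interval of -0.49 to 0.55 (adjusted p = 0.971). Plk3, a stress-response kinase, and Plk4, which starts centriole duplication, had log2 fold changes of 0.15 (adjusted p = 0.729) and -0.18 (adjusted p = 0.531). On the scale per kilobase of merged exons Plk1 held 58.1% of the Polo kinase level in the controls and 65.3% in the Insm1 libraries, and Plk2 18.7% ± 8.03 (SD, n = 3) and 8.69% ± 1.40 (SD, n = 3). Per kilobase of the longest transcript Plk1 held 47.0% in the controls and 55.4% in the Insm1 libraries, and Plk2 24.0% and 11.8%.

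**Figure D3:**
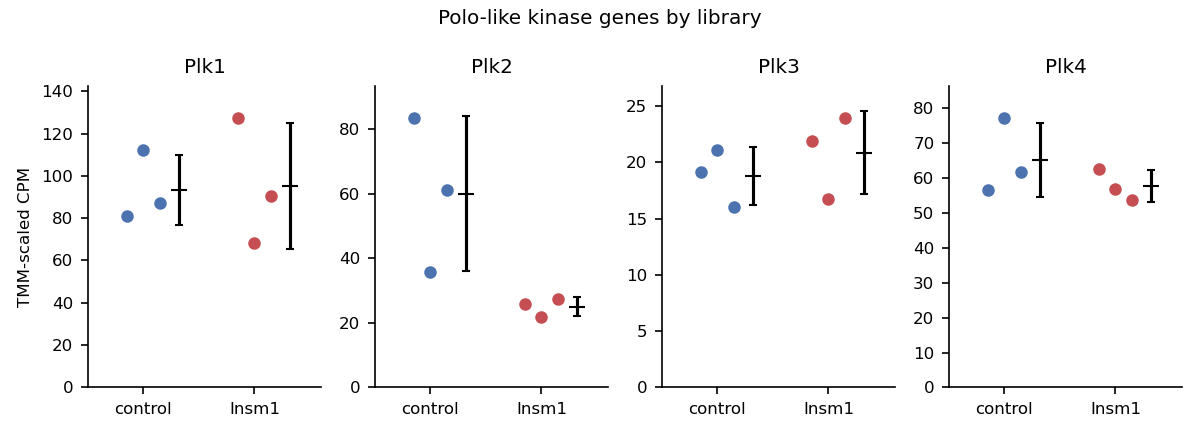
Polo-like kinase genes in each library, in TMM-scaled CPM on axes that start at 0. Points are libraries, blue for control and red for Insm1, with the mean and SD over 3 libraries at the right of each group. Plk2 has a control mean of 60.0 and an Insm1 mean of 25.0 CPM without overlap, while the groups overlap for Plk1, Plk3 and Plk4.

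The Aurora kinases and the chromosomal passenger complex correct the attachment of chromosomes to the spindle. Aurkb, the kinase of the complex, was at 81.8, 109 and 75.7 CPM in the controls and 96.3, 78.1 and 89.6 CPM in the Insm1 libraries, with a log2 fold change of -0.011 and an interval of -0.31 to 0.29 (adjusted p = 0.982). The groups overlapped fully. Aurka, the kinase of the spindle poles, had 45.9% of the Aurora level in the controls and a log2 fold change of 0.078 (adjusted p = 0.924). Birc5 and Incenp, the subunits that hold the complex at the centromere, had values of -0.11 and 0.089.

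The kinetochore, the protein plate on the centromere that binds spindle microtubules, was the largest group, with 13 of 18 values below 0 and none called. Cenpi, a subunit of its inner layer, was at 25.8, 29.0 and 27.3 CPM in the controls and 20.7, 22.5 and 22.6 CPM in the Insm1 libraries. Cenpi (chrX:134308084-134362639, plus strand) showed tight groups that did not overlap, 1.25-fold apart (log2 fold change -0.32, 95% interval -0.57 to -0.069, adjusted p = 0.169). Cenpw, of the same layer, also had no overlap, at a log2 fold change of -0.36 with an interval of -0.74 to 0.022 (adjusted p = 0.325).

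Cenpa, the histone H3 variant that marks the centromere, was at 95.1, 119 and 111 CPM in the controls and 116, 71.4 and 97.0 CPM in the Insm1 libraries. Insm1 library 2 lay far below the rest (log2 fold change -0.19, adjusted p = 0.621). Cenpb, which binds a DNA box in centromeric repeats, was at 108, 101 and 115 CPM and at 113, 106 and 106 CPM, among the steadiest members (log2 fold change 0.0078, 95% interval -0.16 to 0.17). Its exons overlap those of Spef1. The motor Cenpe and the large coiled-coil protein Cenpf, which act at the outer layer, had values of 0.081 and -0.18.

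Mki67, which encodes the Ki-67 protein that coats mitotic chromosomes and marks cycling cells, was at 527, 745 and 577 CPM in the controls and 651, 469.8 and 561 CPM in the Insm1 libraries. Mki67 (chr7:135689784-135716361, minus strand) was highest in control 2 and lowest in Insm1 library 2, with a log2 fold change of -0.14 and an interval of -0.49 to 0.21 (adjusted p = 0.741). Top2a, the topoisomerase that untangles sister chromatids, was at 574, 785 and 639 CPM in the controls and 776, 539 and 678 CPM in the Insm1 libraries. Its group means were nearly equal although its libraries spread widely, at a log2 fold change of -0.0046 with an interval of -0.35 to 0.35 (adjusted p = 0.993). Tpx2, Nusap1 and Hmmr, which build the spindle, had values between -0.074 and -0.042.

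Of the genes that hold and then release the cell at anaphase, the 7 values lay between -0.17 and 0.091. Cdc20, the activator of the APC/C, was at 91.0, 122 and 97.9 CPM in the controls and 121, 77.6 and 115 CPM in the Insm1 libraries (log2 fold change 0.013, adjusted p = 0.984). Ube2c, the ubiquitin-conjugating enzyme that works with the APC/C, was at 169, 216 and 186 CPM in the controls and 256, 151 and 196 CPM in the Insm1 libraries (log2 fold change 0.075, adjusted p = 0.894). In both genes Insm1 library 1 was high and Insm1 library 2 the lowest of all. Exons of Cdc20 overlap those of Elovl1, and exons of Ube2c those of Tnnc2.

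The G cyclins, which are not partners of the core Cdks and are linked to growth arrest, were the one group with both values above 0. Ccng2, which is raised in quiescent and differentiating cells, was at 305, 363 and 294 CPM in the controls and 347, 392 and 343 CPM in the Insm1 libraries. The groups overlapped through control 2, and the log2 fold change of 0.17 had an interval of -0.026 to 0.37 (adjusted p = 0.373). Ccng1, a p53 target, was at 33.0, 31.6 and 42.4 CPM and at 38.3, 45.1 and 47.9 CPM, 1.23-fold higher with an interval of -0.0064 to 0.60 around a log2 fold change of 0.29 (adjusted p = 0.303). Each kept a positive value with any one library left out, Ccng2 between 0.11 and 0.27 and Ccng1 between 0.22 and 0.44.

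Among the 13 tested Cdks outside the core cycle, 6 values were above 0 and 7 below. Cdk16 and Cdk17 are related kinases with roles in neurons and vesicle traffic. Cdk17 was at 157, 124 and 145 CPM in the controls and 113, 118 and 125 CPM in the Insm1 libraries, with control 2 just inside the Insm1 range. Its log2 fold change was -0.26 with an interval of -0.46 to -0.059 and an adjusted p of 0.165, and without control 2 it was -0.35 with an adjusted p of 0.0415. Cdk17 (chr10:93160875-93267071, plus strand) shares exon sequence with Elk3.

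Cdk16 was at 199, 183 and 209.7 CPM in the controls and 184, 169 and 188 CPM in the Insm1 libraries (log2 fold change -0.13, adjusted p = 0.408). Control 2 again lay among the Insm1 libraries. Cdk9, which releases paused RNA polymerase II, was at 82.3, 91.6 and 81.7 CPM and at 89.7, 89.4 and 88.0 CPM (log2 fold change 0.063, adjusted p = 0.765). Cdk20, a kinase linked to cilia, was at 7.48, 4.67 and 5.81 CPM and at 10.1, 6.35 and 6.43 CPM, with overlapping groups and an interval of -0.23 to 0.93. The transcriptional kinases Cdk12 and Cdk13 had values of 0.028 and 0.0030, and Cdk8 of the Mediator complex had groups that did not overlap at a log2 fold change of -0.075 (adjusted p = 0.720).

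The larger variation of mitotic members was between libraries of the same group, a pattern that was noticed in the values and is given with no test. Over the 44 tested members of the B cyclin, Aurora and Polo, kinetochore, spindle and checkpoint groups, the median of log2 CPM minus the member's mean was -0.109, 0.255 and -0.005 in controls 1 to 3 and 0.161, -0.354 and -0.009 in Insm1 libraries 1 to 3. Control 2 was thus the high library and Insm1 library 2 the low one, 0.609 apart in log2 (1.53-fold), a span that includes the group difference. The median log2 fold change between the groups was -0.094. Over all tested genes the medians per library were between -0.002 and 0.011, a range that is largely fixed by the TMM scaling. Within the Insm1 group alone, libraries 1 and 2 differed by 0.515 in log2, and within the controls libraries 1 and 2 differed by 0.364.

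The order with control 2 as the highest control, Insm1 library 1 as the highest Insm1 library and Insm1 library 2 as the lowest was found in 35 of the 80 members (43.8%), beside 7.9% of all genes. It was found in 5 of 5 spindle and chromosome proteins, 5 of 7 checkpoint and APC/C genes, 10 of 18 kinetochore genes, 5 of 8 genes of the Aurora and Polo group and 4 of 6 genes of the B cyclin group. Outside mitosis it was found in 3 of 5 genes of the E and A cyclin group (Ccna2, Ccne1 and Cdk2) and 3 of 8 E2F factors (E2f1, E2f2 and E2f4). No D cyclin or partner, pocket protein, G cyclin or Cdk outside the core cycle had it. Cdk1, Ccnb1, Top2a, Mki67, Cdc20 and Ube2c had it in the values above, and so did Ccnb2, at 76.5, 102 and 93.2 CPM in the controls and 96.5, 60.4 and 76.8 CPM in the Insm1 libraries. Apical progenitor markers did not follow this order, since their sum was highest in control 1 and lowest in Insm1 library 3. Red blood cell markers did not follow it either: their sum was highest of the controls in control 2, but at 5148 CPM Insm1 library 2 was the highest of the Insm1 libraries. The sum of basal progenitor markers did follow it. That sum was 2262, 2491 and 2368 CPM in controls 1 to 3 and 2702, 2476 and 2639 CPM in the Insm1 libraries. Of the 10 basal markers, 1 had the order by itself, Neurog2, at 310, 418 and 413 CPM in the controls and 479, 257 and 316 CPM in the Insm1 libraries. Its SD over the Insm1 libraries, 115 CPM, was the largest of the 10. The order of the sum is therefore not one that the basal markers share as a set. Projection neuron markers did not follow it, with sums of 7444, 7053 and 7345 CPM and of 8022, 8536 and 8757 CPM. The part of these cell types in the pattern was not tested.

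**Figure D4:**
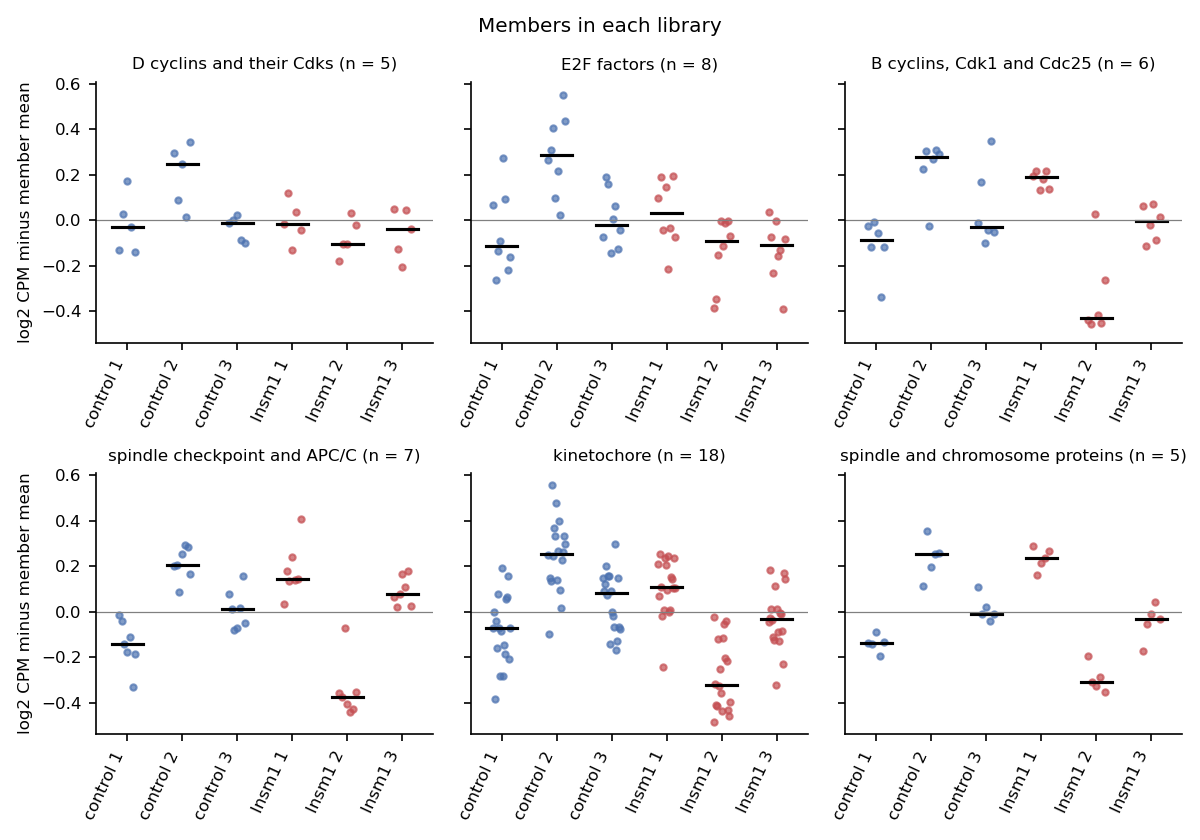
Deviation of each member from its mean over the 6 libraries, in log2 CPM, for 6 groups of members. Points are genes, blue in control and red in Insm1 libraries, and bars are medians. In the mitotic groups control 2 lies above 0 and Insm1 library 2 below it, while the D cyclins and their Cdks lie closer to 0 in Insm1 library 2.

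A further list gave the genes of the pathway that are not members. Of 92 listed genes, which cover the APC/C, Cdk partners and Cdk1 kinases, the MuvB, B-Myb, FoxM1 and DP factors, condensins, mitotic kinesins and cytokinesis genes, and further kinetochore and cohesion genes, all were tested and none was called in either direction, beside 3.35% of all genes, with 5 at an unadjusted p below 0.05, beside 17.2%. Their median log2 fold change was -0.084. Summed over the 92, the level was 8804, 10720 and 9341 CPM in the controls and 9888, 8302 and 9330 CPM in the Insm1 libraries, with control 2 highest and Insm1 library 2 lowest. The shared order was found in 46 of the 92, beside 7.9% of all genes. It was found in 16 of 22 mitotic kinesins and cytokinesis genes, which pull the spindle and split the cell, and 6 of 8 condensin subunits, which compact chromosomes, and in 11 of 24 kinetochore and cohesion genes, 6 of 13 Cdk partners and Cdk1 kinases, 3 of 9 MuvB, B-Myb, FoxM1 and DP factors and 4 of 16 APC/C genes.

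The promoter elements shown at the start had a higher share among the members with the shared order. RefSeq windows from 250 bases before to 50 after the start were matched for 69 of the 83 members, giving 76 windows. CCAAT boxes were found in 59.2% of them, the CHR in 35.5% and E2F-like octamers in 13.2%, beside 37.9%, 13.4% and 3.74% of the 12956 windows of tested genes and 37.4%, 19.2% and 2.26% of all 32851 windows. Of the 34 windows of members with the shared order 79.4% held a CCAAT box and 55.9% a CHR, and of the 42 windows of other members 42.9% and 19.0%. Both elements together were found in 52.9% and 16.7%, beside 5.67% of tested genes. E2F-like octamers were about equally common, at 14.7% and 11.9%. In the 150 bases before the start alone, both elements together were found in 26.5% and 9.52%. A match is a string of letters and not a bound site. The counts carry no test, since the shared order was chosen from the values. Of the 35 members with the shared order, 29 belong to the 44 tested mitotic members, and CCAAT boxes and the CHR are known from mitotic promoters. Mitotic role and shared order therefore cannot be told apart here, and shares within the mitotic members alone were not taken. The windows of other members include those of Aurkc, Ccnb3 and Cdk18, which were not tested. The 6 members with several starts give several windows each, and those of Bub3 overlap.

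**Figure D5:**
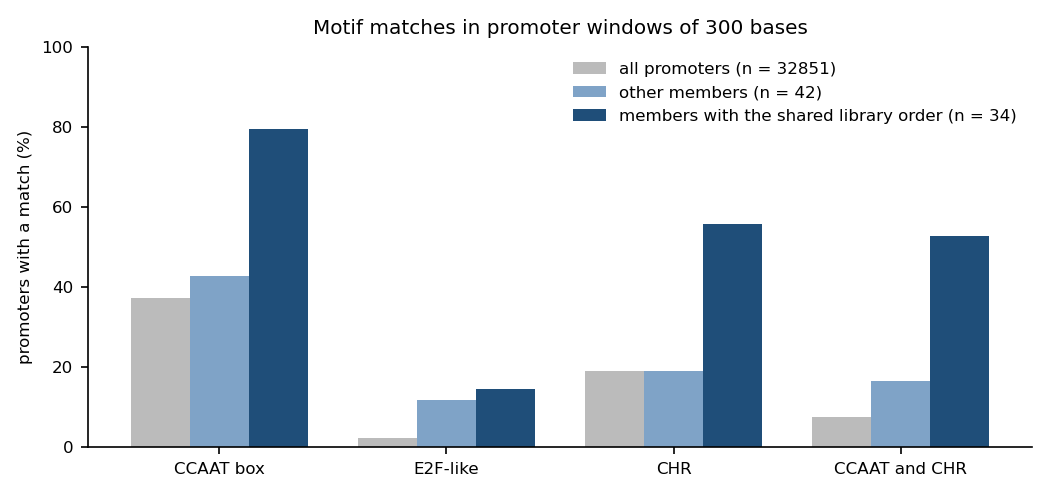
Share of RefSeq promoter windows of 300 bases that hold each element, in percent on an axis from 0 to 100. Grey bars are all 32851 windows and the other bars the 42 windows of members without and the 34 windows of members with the shared library order. CCAAT boxes (79.4%) and the CHR (55.9%) are most frequent in the last group, which consists mostly of mitotic members, and E2F-like octamers are rare in each.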

How the data were processed

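RNA was measured in 6 libraries, 3 per group. Per the labels' protocols, poly-dT priming with template switching gave cDNA that went through 12 cycles of amplification, shearing and 15 more cycles before single reads of 75 bases were taken; the protocols describe neither strand marks nor molecular identifiers. Per the submitters' processing notes, reads were handled with bcl2fastq, Bowtie and TopHat2 2.0.13 on GRCm38; the counting program and gene annotation were not given in the sources used here. Reads per gene make up the deposited counts, which are whole numbers. The authors' deposited TPM values equal those counts divided by the genomic span of the gene, introns included, in 95.5% of 11076 genes with at least 500 counts (within 1%), so levels were compared between genes as CPM per kilobase of merged GENCODE M21 exons in place of TPM, a change made after the data were seen.

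Genes were filtered by edgeR's filterByExpr and scaled by TMM (factors 0.975 to 1.021). The test was the two-sided quasi-likelihood F test of edgeR 4.0.16 in R 4.3.3, with robust fitting and group as the single term, and a call needed an adjusted p (Benjamini-Hochberg over 13560 genes) below 0.05. Standard errors come from the F statistic, intervals are at 95%, and values after ± are SDs unless given as SE. Replicates of a group differed by more than counting noise (chi-square per degree of freedom 12.9 to 32.5). Members given by library were the 5 with the lowest p in each direction, the 2 of highest TPM in each role and 9 reference genes. Members and lists were chosen with earlier results of these data known. Other genes named with a value were chosen after their values were seen. Of the members, 24 share exon sequence with another gene. The fit was tested on simulated data, where it called 47.8% of 1.5-fold changes, 74.6% of 2-fold changes and 84.8% of 4-fold changes. A gene that is not called may therefore still have changed. Also tried were upper-quartile and RLE scaling, limma-voom, DESeq2 1.42.0 and limma on log2 TPM (limma 3.58.1), other filters, a replicate block, a fit that is not robust, another threshold and each library left out.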

Additional observations from a re-analysis of the deposited data

How the results depend on the processing

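The 454 genes called became 1022 with DESeq2 (428 higher and 594 lower), 60 with limma on log2(TPM + 1), 64 on log2(TPM + 0.1) and 834 at an adjusted p below 0.1. Leaving out 1 library gave between 101 (without control 3) and 631 (without control 2), with 221 without control 1, 176 without Insm1 library 2 and 196 without Insm1 library 3. Members called numbered 1, Plk2, with DESeq2, with the replicate block, with a fit that is not robust and at an adjusted p below 0.1, and between 0 and 2 with 1 library left out, the 2 being Cdk17 and Plk2 without control 2. The labels do not say what the replicate numbers mark. Deviations of libraries with the same number correlated at 0.0744, 0.0349 and -0.055, and not every library correlated best with its own number. These correlations cannot exclude that libraries with the same number share a litter or day. With the number as a block 331 genes were called.

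The median log2 fold change over members was 0.016 without control 2, -0.024 without Insm1 library 2 and -0.17 without Insm1 library 1, and 69 of 80 members were negative on the TPM scales. Over all genes the median was -0.0515 on log2(TPM + 1) and -0.0688 on log2(TPM + 0.1), beside -0.0086 in the main fit. The TPM values were not scaled by TMM. Of the 31 members given by library, 14 changed sign under some setting, each with a main value of at most 0.137 in size. With 1 library left out the ranges were -0.108 to 0.164 for Aurkb, -0.156 to 0.060 for Ccna2, -0.233 to 0.064 for Ccnb1, -0.185 to 0.027 for Ccnd1, -0.105 to 0.190 for Cdc20, -0.167 to 0.061 for Cdk1, -0.165 to 0.088 for Cdk6, -0.035 to 0.060 for Cenpb, -0.257 to 0.026 for Mki67, -0.232 to 0.223 for Plk1, -0.035 to 0.075 for Rb1, -0.131 to 0.134 for Top2a and -0.136 to 0.245 for Ube2c. limma-voom gave 0.00095 for Aurkb, -0.0017 for Plk1 and -0.0025 for Cdc20, and the replicate block gave 0.0017 for Aurkb. On log2(TPM + 1) and log2(TPM + 0.1) the values were -0.066 and -0.067 for Plk1, -0.00057 and -0.00057 for Cdk9, -0.056 and -0.056 for Cenpb, -0.045 and -0.049 for Rb1, -0.068 and -0.068 for Cdc20, and -0.016 and -0.016 for Ube2c. Cenpb was at -0.0051 with upper-quartile scaling and -0.0034 with the 5 CPM filter, and Top2a at 0.00061 with DESeq2 and 0.0044 with no filter. The cause of these changes was not tested. Intervals cover the spread between 3 libraries a group and counts of amplified fragments, and members near 1 CPM, such as Ccna1, are limited by depth.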

Other observations

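Several members had few counts in these cells. Ccna1, known from the germ line, was at 0.874, 0.357 and 0.946 CPM in the controls and 0.259, 0.227 and 0.678 CPM in the Insm1 libraries, with overlapping groups and an interval of -2.34 to 0.54 around a log2 fold change of -0.90 (adjusted p = 0.558 by edgeR). Cdk15 lay between 1.52 and 2.87 CPM in every library. Aurkc, the germ-line Aurora kinase, had counts of 0, 0 and 3 in the controls and 1, 0 and 0 in the Insm1 libraries, and Cdk18 had 0 in each control and 1, 1 and 11 in the Insm1 libraries.

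The cAMP response element of the Plk2 promoter was searched for after that promoter had been seen. TGACGTCA was found, on either strand, in 4 of the 76 member windows (5.26%), beside 2.98% of the windows of tested genes and 1.79% of all windows. In Plk2 it began 62 bases before the RefSeq start.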
